A study of Homo sapiens with 20 samples.

Results

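The GSK3 kinases, beta-catenin and a set of WNT target genes were examined in human multiple myeloma cell lines given indirubin-3'-monoxime (I3MO), an indirubin. Indirubins inhibit GSK3 and other kinases and also bind the aryl hydrocarbon receptor. The 10 genes were GSK3A, GSK3B, CTNNB1, LEF1, TCF7, AXIN2, RNF43, ZNRF3, NKD1 and DKK1, chosen by symbol among the 60483 Ensembl gene identifiers of the expression matrix, and each matched 1 identifier. RNA sequencing of total RNA gave 20 libraries in 10 groups of 2. The models were ANBL6BR (labelled ANBL6_BR, genotype bortezomib resistant) and the lines ANBL6, ARP1, RPMI8226 and U266 (genotype wild type). The 5 treated groups received I3MO, at 5 µM in ANBL6BR and ANBL6 and at 10 µM in ARP1, RPMI8226 and U266. The 5 control groups of the same models received DMSO, the vehicle. Dose and model therefore cannot be told apart between the first 2 and the other 3 models. ANBL6BR is resistant to the proteasome inhibitor bortezomib and is 1 resistant model. How long cells were treated, and whether replicates came from separate cultures, is not stated in the labels, so the p-values below rest on the spread of these libraries alone, and that spread may be technical.

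In canonical WNT signalling, GSK3 works within a cytoplasmic destruction complex with AXIN and APC proteins, and its phosphorylation of beta-catenin marks that protein for degradation by the proteasome. When a WNT ligand binds its receptors, or GSK3 is inhibited, beta-catenin escapes degradation, enters the nucleus and switches on genes bound by TCF and LEF factors. Several of these genes, among them AXIN2, RNF43, ZNRF3, NKD1 and DKK1, encode brakes on the same pathway, and DKK1 secreted by myeloma cells is known for blocking bone formation. The control of GSK3 and beta-catenin acts largely on the proteins, which RNA levels do not measure.

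Values are FPKM (fragments per kb of gene length per M, or mega, fragments). Library totals recovered from the FPKM ran from 12.11 M to 20.31 M fragments, and replicates correlated across genes at r = 0.962 to 0.989. The I3MO libraries of ANBL6 stood apart, with 32668 and 28419 genes above 0, against 22138 and 22710 in ANBL6 DMSO and 20766 to 26588 in the others. Of 8 plasma cell markers, 7 were at 1 FPKM or more in every library, SLAMF7 being the exception at 0.0028 to 6.45 FPKM. Their sum was far apart in the 2 ANBL6BR DMSO libraries, at 186 and 495 FPKM, against 374 and 383 with I3MO. All 6 T cell markers stayed under 1 FPKM. In bulk RNA, fewer cells of a type and less RNA per cell cannot be told apart. Tests used limma on log2(FPKM + 1) over the 15687 genes with at least 1 FPKM in at least 2 libraries, with adjusted p under 0.05 as the threshold. A fold change on this scale understates the change of a low gene. GSK3A, GSK3B, CTNNB1, LEF1, RNF43 and DKK1 were tested, 6 of the 10, and AXIN2, TCF7, ZNRF3 and NKD1 were too low in the libraries to enter.

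The kinases and beta-catenin were expressed in every model, while the targets and the LEF1 factor differed greatly between models. Per kb of merged exon and M fragments, a scale that allows levels of different genes to be compared, the DMSO means were 12.8 to 34.2 for GSK3A, 3.93 to 12.3 for GSK3B and 7.79 to 19.4 for CTNNB1. For GSK3B, CTNNB1 and NKD1 the gene length behind the FPKM could only be inferred from the values, so their levels on this scale are the lowest that give whole fragments. LEF1 spanned 0.00644 in ANBL6 to 13.1 in ARP1 on the same scale, and RNF43 spanned 0.0224 in ARP1 to 4.36 in U266. DKK1 was at 2.5 in U266 and 1.08 in ARP1 and at 0 in the DMSO libraries of the other 3 models. AXIN2 reached 1.02 in ARP1, and TCF7, ZNRF3 and NKD1 stayed at or under 0.319 in all models. The DMSO level differed between the 5 models for 6 of the 6 tested genes, beside 90.0% of all tested genes (limma F-test, adjusted p from 6.08e-10 for LEF1 to 7.54e-06 for GSK3B). RNF43 and DKK1 passed the filter only through the U266 DMSO libraries, so their part in this count is a description only.

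**Figure D1:**
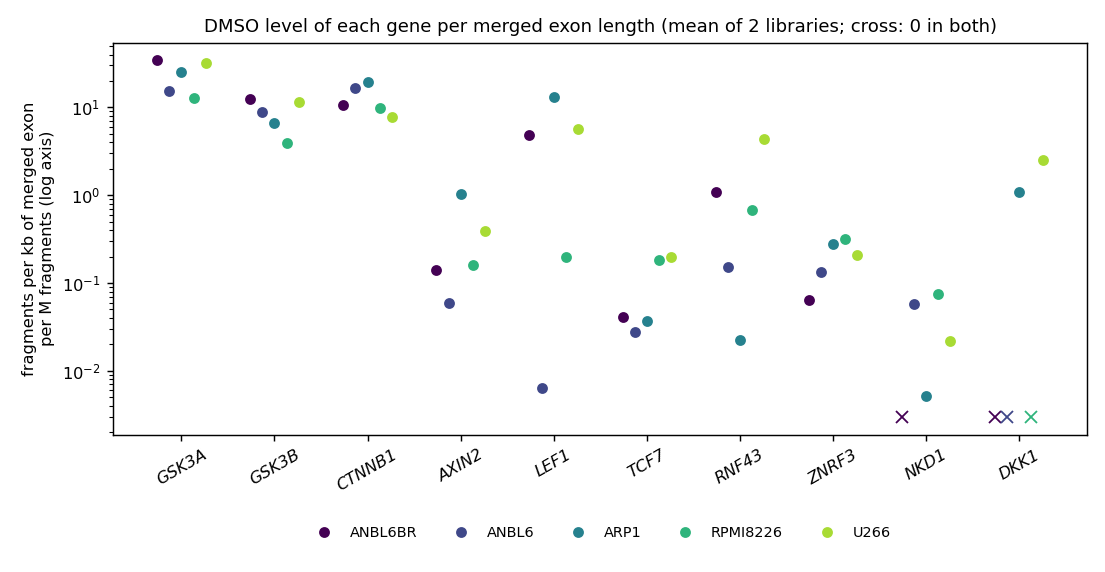
DMSO level of each gene in fragments per kb of merged exon per M fragments, on a log axis, with 1 point per model as the mean of 2 libraries and a cross at the foot of the axis for genes at 0 in both. GSK3A, GSK3B and CTNNB1 lie between 3.93 and 34.2 in all models, and LEF1 spans 0.00644 to 13.1.

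**Figure D2:**
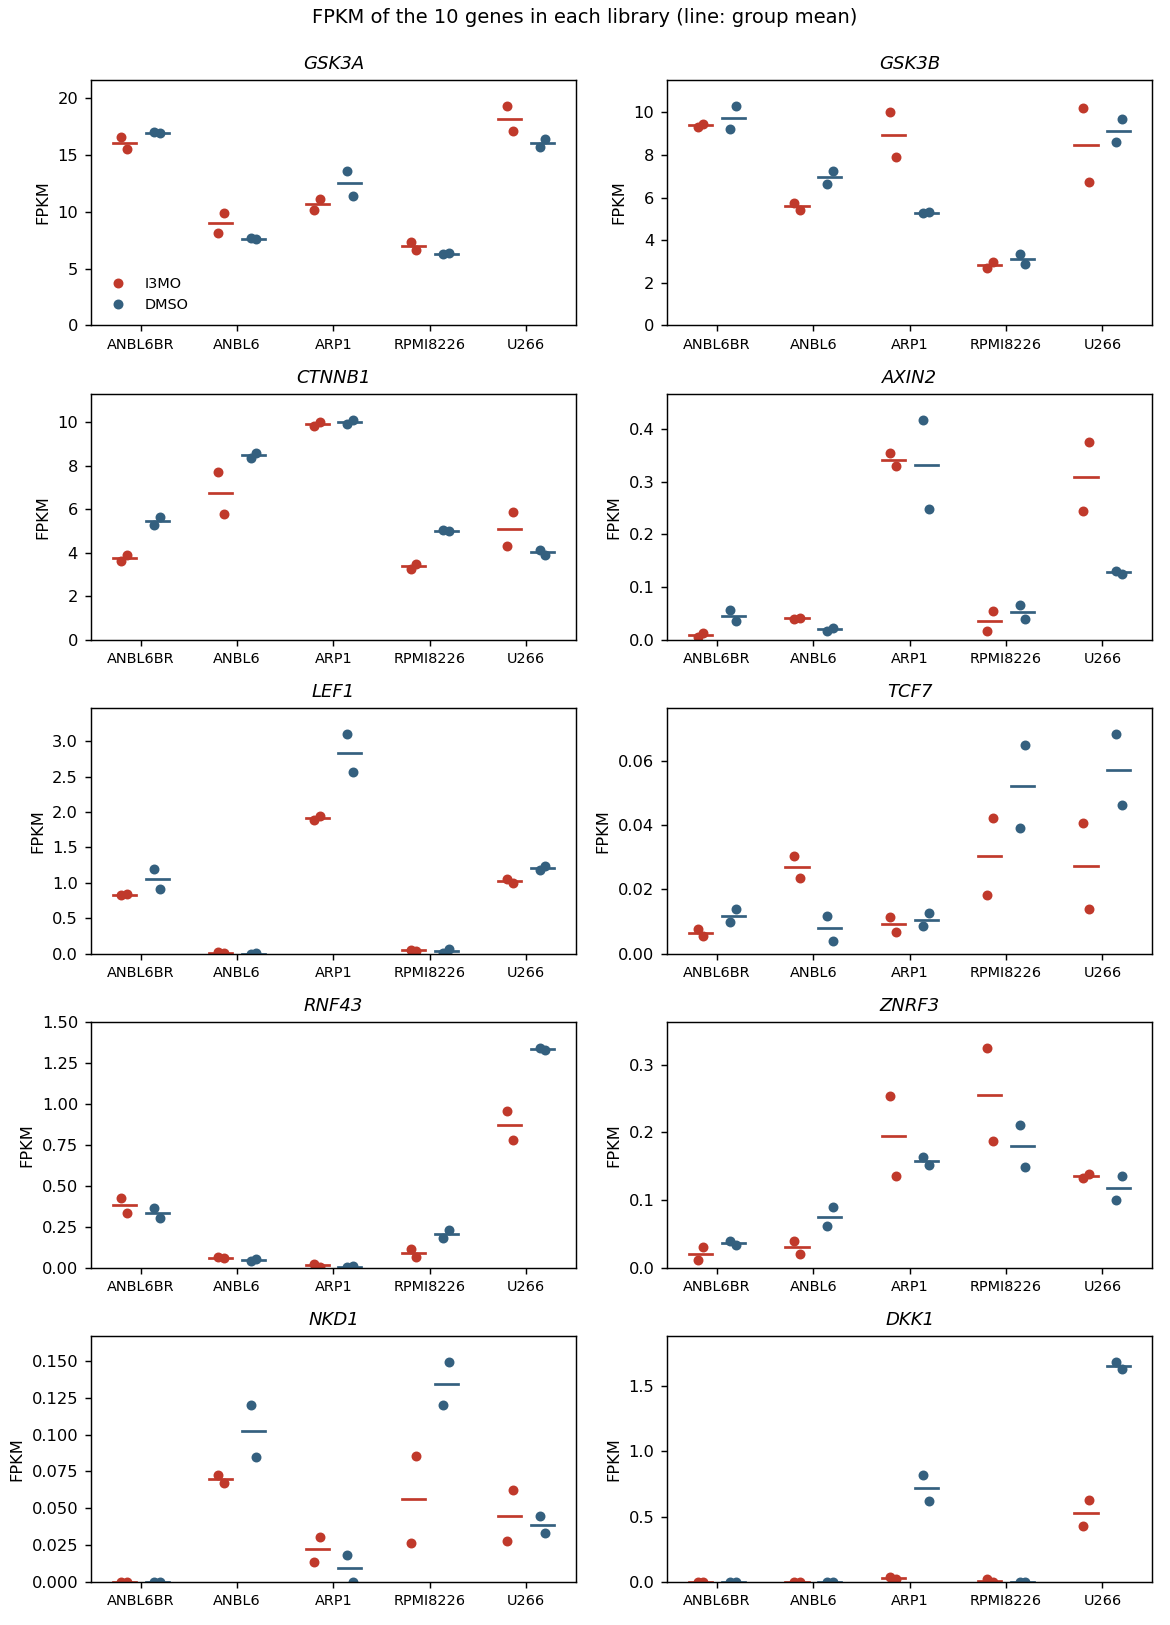
FPKM of the 10 genes in each library, with I3MO libraries to the left of DMSO libraries in each model and a line at each group mean. DKK1 in ARP1 lies at 0.0399 and 0.0181 FPKM with I3MO, below both DMSO libraries at 0.821 and 0.615 FPKM.

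GSK3A and GSK3B encode the 2 GSK3 paralogs, serine/threonine kinases of the destruction complex. GSK3A (chromosome 19, 42230186 to 42242625, minus strand, hg38) had 10.2 and 11.1 FPKM in ARP1 with I3MO, against 13.6 and 11.4 FPKM with DMSO. Its I3MO libraries lay below the DMSO libraries there and in ANBL6BR, and above them in ANBL6, RPMI8226 and U266. None of these differences passed the test: log2 fold changes ran from -0.2 in ARP1 (limma, adjusted p = 0.144) to 0.2 in ANBL6 (limma, adjusted p = 0.258). Scaling libraries by median ratios lowers ARP1 I3MO against ARP1 DMSO by 0.29 on the log2 scale, and the GSK3A difference there was then -0.47 (limma, adjusted p = 0.00675). It also passed, at -0.32, without DMSO replicate 2 (limma, adjusted p = 0.0451).

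GSK3B (chromosome 3, 119821323 to 120094417, minus strand) rose in ARP1 with I3MO. It had 10.0 and 7.9 FPKM in the ARP1 I3MO libraries, against 5.27 and 5.33 FPKM in the ARP1 DMSO libraries. Both treated libraries lay above both controls, and behind them stood 1548 and 1349 fragments with I3MO, against 910 and 989 with DMSO. The log2 fold change was 0.65 ± 0.15 (SE; limma, adjusted p = 0.00434), and with median-ratio scaling it was 0.4 (adjusted p = 0.0157). The call rested on I3MO replicate 1: without it the log2 fold change was 0.5 (limma, adjusted p = 0.0597). In ANBL6 the libraries also did not overlap, at 5.77 and 5.42 FPKM with I3MO and 6.66 and 7.24 FPKM with DMSO, but this lower level did not pass (-0.27 ± 0.15, limma, adjusted p = 0.317). In U266 the I3MO replicates were far apart at 10.2 and 6.72 FPKM, on either side of 8.6 and 9.68 FPKM with DMSO. The U266 difference was -0.12 and passed only without I3MO replicate 1, at -0.39 (limma, adjusted p = 0.0431). ANBL6BR and RPMI8226 libraries overlapped between treatments.

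The GSK3B minus GSK3A difference in log2(FPKM + 1) within a library follows the balance of the pair between treatments. Since the gene length used for GSK3B is inferred, its change is read here and not its level. In ARP1 the difference of GSK3B minus GSK3A was -0.44 to -0.03 with I3MO, against -1.22 to -0.96 with DMSO, so the balance lay further towards GSK3B in the treated libraries, without overlap. In ANBL6 it was -0.76 to -0.43 with I3MO, against -0.18 to -0.06 with DMSO, the opposite order. I3MO minus DMSO differences of this ratio were 0.03 in ANBL6BR, -0.47 in ANBL6, 0.85 in ARP1, -0.23 in RPMI8226 and -0.29 in U266. Over the 5 models the mean was -0.02 ± 0.52 (SD), negative in 3 of 5 (two-sided exact permutation test, p = 1.0, where 5 models cannot go below 0.0625).

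**Figure D3:**
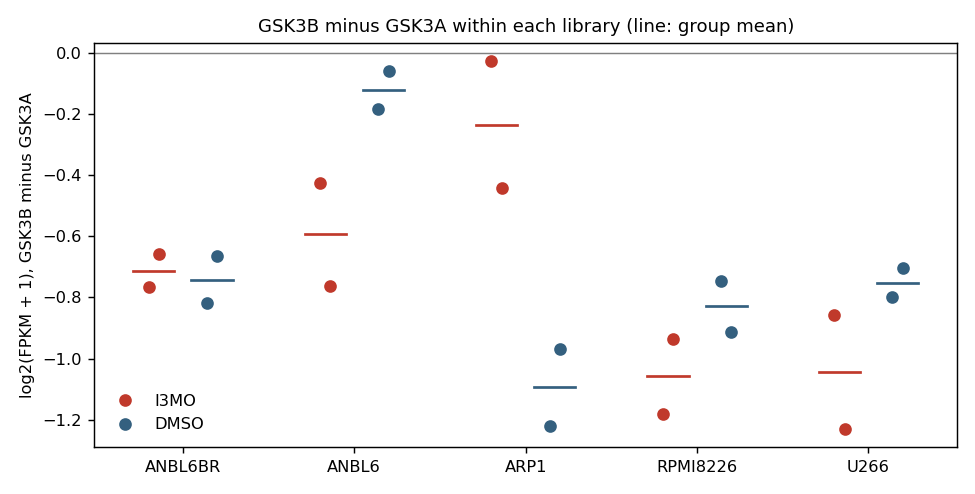
GSK3B minus GSK3A in log2(FPKM + 1) within each library, I3MO to the left of DMSO in each model, with a line at each group mean. The ARP1 means are -0.24 with I3MO and -1.09 with DMSO, and the ANBL6 means are -0.59 with I3MO and -0.12 with DMSO.

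CTNNB1 (chromosome 3, 41194741 to 41260096, plus strand) encodes beta-catenin, the co-activator that the destruction complex holds down. Its RNA fell in RPMI8226 and ANBL6BR with I3MO. RPMI8226 had 3.27 and 3.47 FPKM with I3MO, against 5.04 and 4.99 FPKM with DMSO, which is -0.46 ± 0.12 on the log2 scale (limma, adjusted p = 0.0225). ANBL6BR had 3.62 and 3.89 FPKM with I3MO, against 5.27 and 5.63 FPKM with DMSO, which is -0.44 ± 0.12 (limma, adjusted p = 0.0237). In both models the treated libraries lay below both controls. The sizes were stable when single libraries of the model were left out (-0.49 to -0.43 in RPMI8226 and -0.48 to -0.4 in ANBL6BR). The calls were not: RPMI8226 was called in 0 of these 4 fits (adjusted p = 0.0779 to 0.14) and ANBL6BR in 1 of 4, the fit without DMSO replicate 1 (limma, adjusted p = 0.0414 to 0.13). The RPMI8226 call was also lost with median-ratio scaling (-0.43; limma, adjusted p = 0.0629).

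The other models gave different values for CTNNB1. ANBL6 had 7.71 and 5.76 FPKM with I3MO, against 8.38 and 8.58 FPKM with DMSO, with no overlap but a wide gap between the treated replicates. Its log2 fold change of -0.31 ± 0.12 did not pass (limma, adjusted p = 0.148) and without I3MO replicate 1 it was -0.49 (limma, adjusted p = 0.033). ARP1 libraries overlapped, at 9.81 and 10.0 FPKM with I3MO and 9.9 and 10.1 FPKM with DMSO (log2 fold change -0.01). In U266 the values ran the other way, at 4.3 and 5.88 FPKM with I3MO and 4.13 and 3.89 FPKM with DMSO (0.27 ± 0.12; limma, adjusted p = 0.13). The U266 difference passed without I3MO replicate 1, at 0.46 (limma, adjusted p = 0.0145).

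LEF1 and TCF7 encode DNA-binding factors through which beta-catenin acts. LEF1 (chromosome 4, 108047545 to 108168956, minus strand) fell in ARP1, the model with its highest level. ARP1 had 1.89 and 1.94 FPKM with I3MO, against 3.1 and 2.56 FPKM with DMSO. These values rest on 705 and 797 fragments with I3MO and 1290 and 1146 with DMSO, and the groups did not overlap. The log2 fold change was -0.39 ± 0.08 (limma, adjusted p = 0.00247), called in 4 of the 4 fits without 1 ARP1 library and lost when 0.1 instead of 1 was added to FPKM (-0.53; limma, adjusted p = 0.0574).

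LEF1 was also lower with I3MO in every library of ANBL6BR and U266, without passing. ANBL6BR had 0.835 and 0.836 FPKM with I3MO, against 1.19 and 0.92 FPKM with DMSO (-0.16; limma, adjusted p = 0.218). U266 had 1.05 and 0.993 FPKM with I3MO, against 1.18 and 1.24 FPKM with DMSO (-0.13; limma, adjusted p = 0.278). ANBL6 had at most 7 LEF1 fragments in a library and RPMI8226 at most 28. Of LEF1's exon bases 5.2% are shared with the antisense gene LEF1-AS1, which was at 0 to 0.529 FPKM; whether counting used the strand is not known here, so their fragments could not be told apart there.

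TCF7 was near the limit of detection, with 2 to 36 fragments per library. U266 had 21 and 8 fragments with I3MO, against 33 and 25 with DMSO, a rate ratio of 0.469 (95% interval 0.29 to 0.745, exact, covering counting error only). ANBL6 ran the other way, with 15 and 10 fragments with I3MO, against 6 and 2 with DMSO, a ratio of 3.45 (1.51 to 8.85). Libraries did not overlap in either model. When genes of all levels were tested, neither passed (limma, adjusted p = 0.195 in U266 and 0.397 in ANBL6). The ANBL6 I3MO libraries had 32668 and 28419 genes above 0, against 22138 and 22710 with DMSO, and the part of this in the TCF7 counts was not tested. TCF7 shares 2.1% of its exon bases with SKP1, which was at 2.66 to 6.76 FPKM. How shared fragments were counted is not known here, so fragments of the 2 genes could not be told apart there.

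DKK1 (chromosome 10, 52314296 to 52318042, plus strand) encodes a secreted inhibitor that binds the LRP5 and LRP6 co-receptors. It was detected with DMSO in ARP1 and U266 alone, and it fell with I3MO in both. ARP1 had 0.0399 and 0.0181 FPKM with I3MO, against 0.821 and 0.615 FPKM with DMSO. In fragments these are 2 and 1 with I3MO and 46 and 37 with DMSO, a rate ratio of 0.0398 (95% interval 0.00805 to 0.12, counting error only). The treated ARP1 libraries were thus almost without DKK1 fragments. U266 had 0.428 and 0.623 FPKM with I3MO, against 1.68 and 1.63 FPKM with DMSO. The corresponding fragments were 21 and 34 with I3MO and 77 and 84 with DMSO, a ratio of 0.321 (0.232 to 0.438). Neither model's groups overlapped, and U266 kept clearly countable DKK1 RNA.

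The DKK1 log2 fold changes on the FPKM + 1 scale were -0.74 ± 0.08 in ARP1 (limma, adjusted p = 3.19e-05) and -0.8 ± 0.08 in U266 (limma, adjusted p = 1.29e-05). With 0.1 added in place of 1 they were -2.66 in ARP1 (limma, adjusted p = 1.39e-05) and -1.51 in U266 (limma, adjusted p = 0.000475), so the order of the 2 models depends on this choice. Every fit without 1 library of the model in which DKK1 was tested called it. DKK1 too reached 1 FPKM only in the U266 DMSO libraries, and without either of them it no longer met the filter. With genes of all levels tested, the adjusted p was 5.31e-05 in ARP1 and 1.79e-05 in U266 (limma). ANBL6BR and ANBL6 had 0 DKK1 fragments in all 8 libraries and RPMI8226 had 1 fragment in all, where a count of 0 allows up to 3 fragments per library. DKK1 is also known from stromal cells. The 6 stromal markers summed to 0.0263 to 0.0444 FPKM in ARP1 I3MO against 0.222 to 0.26 in ARP1 DMSO, and to 2.92 to 4.66 in U266 I3MO against 2.34 to 2.4 in U266 DMSO. Of these, COL1A1 reached 4.18 FPKM, while LUM and DCN were at 0 in 17 and 13 of the 20 libraries. The sum moved with DKK1 in ARP1 and opposite to it in U266, and their part in the result was not tested.

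RNF43 (chromosome 17, 58352500 to 58417595, minus strand) and ZNRF3 encode membrane E3 ubiquitin ligases that remove Frizzled receptors. RNF43 fell in U266, where it was highest. U266 had 0.958 and 0.782 FPKM with I3MO, against 1.34 and 1.33 FPKM with DMSO, resting on 347 and 315 fragments with I3MO and 452 and 504 with DMSO. The groups were well apart, and the difference was -0.32 ± 0.07 on the log2 scale (limma, adjusted p = 0.00549). RNF43 reached 1 FPKM only in the U266 DMSO libraries, so it entered the test through the group where it is high; with genes of all levels tested, the difference was the same (limma, adjusted p = 0.00647). RPMI8226 had 0.116 and 0.0661 FPKM with I3MO, against 0.181 and 0.232 FPKM with DMSO, also without overlap. In fragments the RPMI8226 rate ratio of 0.423 (0.318 to 0.559) was further from 1 than the U266 ratio of 0.65 (0.588 to 0.719). On the FPKM + 1 scale the RPMI8226 log2 fold change was -0.15 ± 0.07 and did not pass (limma, adjusted p = 0.23). With 0.1 added the calls changed places, to -0.69 in RPMI8226 (limma, adjusted p = 0.0429) and -0.57 in U266 (limma, adjusted p = 0.0686). ANBL6BR and ARP1 libraries overlapped between treatments, and ANBL6 had 23 and 17 fragments with I3MO against 15 and 18 with DMSO. RNF43 shares 20.3% of its exon bases with SUPT4H1 and TSPOAP1-AS1, SUPT4H1 being at 2.83 to 12.0 FPKM, and how shared fragments were counted is not known here.

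TCF and LEF factors bind short sequences at target genes, and the 250 bases before the RefSeq gene start are shown for LEF1, RNF43 and DKK1, the genes whose window holds the core of such a sequence. CTNNB1, which also fell, lacks it, and whether the core goes with a fall was not tested. Sequences are from RefSeq on GRCh38.p14, whose starts differ from the gene spans given above: the LEF1 window lies inside its span and the RNF43 window overlaps the end of its span. Capitals mark the core CTTTG or its reverse complement CAAAG, which is contained in the longer site CTTTGAT or ATCAAAG.
LEF1, chr4:108166302-108166551, minus strand: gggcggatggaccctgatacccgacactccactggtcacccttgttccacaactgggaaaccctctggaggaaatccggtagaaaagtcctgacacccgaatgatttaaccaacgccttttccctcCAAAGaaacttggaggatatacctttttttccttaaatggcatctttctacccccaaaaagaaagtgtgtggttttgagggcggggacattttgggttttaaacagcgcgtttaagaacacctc
RNF43, chr17:58417535-58417784, minus strand: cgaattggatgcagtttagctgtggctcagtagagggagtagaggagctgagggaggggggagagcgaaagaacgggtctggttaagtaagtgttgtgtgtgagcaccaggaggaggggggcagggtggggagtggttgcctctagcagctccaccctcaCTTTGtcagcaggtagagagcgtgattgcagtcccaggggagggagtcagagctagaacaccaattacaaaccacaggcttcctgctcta
DKK1, chr10:52314031-52314280, plus strand: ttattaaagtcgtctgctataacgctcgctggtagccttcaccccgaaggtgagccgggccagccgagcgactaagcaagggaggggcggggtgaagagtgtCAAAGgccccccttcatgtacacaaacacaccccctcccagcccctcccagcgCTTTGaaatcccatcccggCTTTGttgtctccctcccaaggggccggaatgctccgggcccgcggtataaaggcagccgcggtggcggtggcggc
The core begins at -124 from the RefSeq start in LEF1, at -90 in RNF43 and at -148, -95 and -76 in DKK1. Of the 10 genes, 7 had a promoter in the table used: the 3 shown hold the core, and GSK3A, GSK3B, CTNNB1 and TCF7 do not. On both strands, the core occurs in 42.2% of 27305 promoters of the same length and the longer site in 2.28%. As spelled here, the longer site occurs in 0 of the 7. Other spellings of the longer site were not searched for. In the DKK1 window the core is followed by aa at -95 and by tt at -76. The 3 of 7 genes with the core thus lie near its share over all promoters. A match of these letters is a description of the window and not a binding site. The promoters of AXIN2, ZNRF3 and NKD1 are not shown.

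AXIN2 encodes a scaffold of the destruction complex and is a widely used readout of beta-catenin activity. It was low everywhere, with 1 to 113 fragments per library, and its I3MO values ran in different directions. U266 had 0.244 and 0.375 FPKM with I3MO, against 0.131 and 0.125 FPKM with DMSO. In fragments these are 58 and 99 with I3MO and 29 and 31 with DMSO, a rate ratio of 2.46 (1.81 to 3.37). The treated U266 libraries lay above both controls. When genes of all levels were tested, AXIN2 rose in U266 by 0.21 ± 0.06 on the log2 scale (limma, adjusted p = 0.0457), beside 11.3% of all genes called in that fit. ANBL6BR ran the other way, with 1 and 3 fragments with I3MO against 13 and 8 with DMSO, a ratio of 0.179 (0.0448 to 0.532) that did not pass (limma, adjusted p = 1.0). ARP1, with the highest AXIN2 level, had 0.355 and 0.329 FPKM with I3MO, inside the 0.417 and 0.248 FPKM with DMSO (ratio 1.04, 0.838 to 1.28). In U266, AXIN2 and DKK1, both known targets, thus moved in opposite directions in the same libraries. Among genes of all levels, equal AXIN2 responses in the 5 models were not rejected (limma F-test, adjusted p = 0.211). AXIN2 shares 25.2% of its exon bases with AC004805.1.

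ZNRF3 and NKD1 were measured by few fragments. ZNRF3 had 2 to 62 fragments per library. Its lowest I3MO ratio was 0.409 in ANBL6 (0.177 to 0.872), from 7 and 3 fragments with I3MO against 11 and 16 with DMSO. NKD1, which encodes a cytoplasmic antagonist that binds Dishevelled, had 4 and 17 fragments in RPMI8226 I3MO, against 18 and 23 in RPMI8226 DMSO, a ratio of 0.445 (0.25 to 0.77). Those libraries did not overlap, and the difference did not pass among genes of all levels (limma, adjusted p = 0.0702). ANBL6BR had 0 NKD1 fragments in all 4 libraries.

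Set beside the whole transcriptome, the genes were called at rates that vary around the background. With I3MO, 1 of the 6 tested genes was called in ANBL6BR (CTNNB1, lower) beside 18.4% of all tested genes, and 0 of 6 in ANBL6 beside 7.97%. In ARP1 3 of 6 were called (GSK3B higher, LEF1 and DKK1 lower) beside 37.0%, in RPMI8226 1 of 6 (CTNNB1, lower) beside 14.8%, and in U266 2 of 6 (DKK1 and RNF43, lower) beside 26.2%. The U266 count is a description only, since both genes passed the filter through the DMSO group of that comparison. Fitted on only the 4 libraries of the model, 0 of 6 were called in ANBL6BR, ARP1 and U266, where limma called 64, 227 and 974 of all genes. In ANBL6, limma gave CTNNB1 alone an unadjusted p under 0.05 (0.0264). Of all calls in ARP1, 62.5% were higher with I3MO, and 40.2% after median-ratio scaling; in ANBL6 these shares were 51.4% and 36.7%.

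The F-test of equal I3MO responses in the 5 models was called for 4 of the 6 genes, beside 44.5% of all tested genes (limma). RNF43 and DKK1 passed the filter only through the U266 DMSO libraries, so their part in this count is a description only. The adjusted p was 0.00016 for DKK1, 0.0157 for CTNNB1, 0.0214 for GSK3B and 0.0393 for RNF43. DKK1 was at 0 in the DMSO libraries of 3 models and could not fall there, so its unequal response follows from its levels. For RNF43 the FPKM + 1 scale makes the RPMI8226 difference smaller than that of U266, while the fragment ratios have the opposite order. Without 1 library it ranged from 0.0137 to 0.073 for RNF43, and it reached 0.0752, 0.0608 and 0.114 for GSK3B without ARP1 DMSO replicate 1, DMSO replicate 2 and I3MO replicate 1, and 0.0502 for CTNNB1 without U266 DMSO replicate 2. In the full data it was 0.0516 for LEF1 and 0.106 for GSK3A, and with median-ratio scaling LEF1 and GSK3A passed too (limma, adjusted p = 0.00888 and 0.0175). Taken over the 5 models as units, 0 of the 6 genes were called, beside 0.0% of all genes, with 0 of the 6 and 2651 of all genes at an unadjusted p under 0.05 (limma). The lowest adjusted p was that of DKK1 (-0.31 ± 0.16; limma, adjusted p = 0.378), which was lower in the 2 models that express it.

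**Figure D4:**
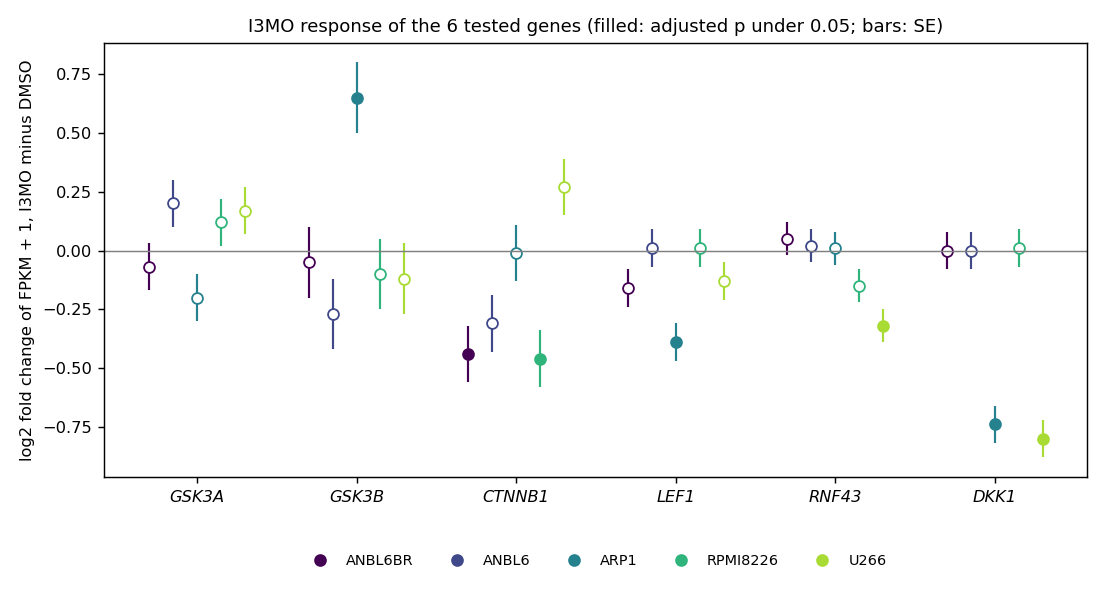
Log2 fold change of FPKM + 1, I3MO minus DMSO, of the 6 tested genes in each model, with SE bars and filled points at an adjusted p under 0.05. GSK3B in ARP1 stands at 0.65 while the other models lie between -0.27 and -0.05, and DKK1 stands at -0.74 in ARP1 and -0.8 in U266.

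ANBL6BR and ANBL6 differed in DMSO for 5 of the 6 tested genes, beside 51.8% of all tested genes. GSK3A had 17.0 and 16.9 FPKM in ANBL6BR, against 7.7 and 7.59 FPKM in ANBL6, higher by 1.05 ± 0.1 on the log2 scale (limma, adjusted p = 1.68e-06). LEF1 had 428 and 328 fragments in ANBL6BR, against 0 and 1 in ANBL6, a rate ratio of 758 (136 to 30000) and a difference of 1.03 ± 0.08 (limma, adjusted p = 2.4e-07). LEF1 RNA was thus readily counted in the resistant form and almost undetected in ANBL6. RNF43 had 131 and 107 fragments in ANBL6BR, against 15 and 18 in ANBL6, a ratio of 7.23 (5.01 to 10.7) and a difference of 0.35 ± 0.07 (limma, adjusted p = 0.00114). GSK3B had 9.2 and 10.3 FPKM in ANBL6BR, against 6.66 and 7.24 FPKM in ANBL6 (0.44 ± 0.15; limma, adjusted p = 0.0251). The GSK3B call held in 1 of the 4 fits without 1 of these libraries, the fit without ANBL6BR replicate 1 (limma, adjusted p = 0.0361 to 0.132). CTNNB1 was lower in the resistant form, at 5.27 and 5.63 FPKM in ANBL6BR against 8.38 and 8.58 FPKM in ANBL6 (-0.56 ± 0.12; limma, adjusted p = 0.00175). The 2 DMSO groups overlapped for none of these 5 genes.

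NKD1 had 0 fragments in ANBL6BR DMSO, against 17 and 12 in ANBL6 DMSO, a rate ratio of at most 0.136 (upper end of the exact 95% interval, counting error only). Among genes of all levels NKD1 passed (-0.14 ± 0.03; limma, adjusted p = 0.00333), beside 20.5% of genes. The I3MO response of ANBL6BR minus that of ANBL6, at the same dose, was called for 0 of the 6 genes, beside 8.47% of all genes (4.14% higher and 4.33% lower), with 0 of the 6 at an unadjusted p under 0.05 (limma). DKK1 had no fragments in these 8 libraries and LEF1 at most 7 in an ANBL6 library, so neither could show a difference in its fall. For CTNNB1 that difference was -0.14 ± 0.17 (limma, adjusted p = 0.717). The DMSO profiles of ANBL6BR and ANBL6 correlated across tested genes at r = 0.815, and those of ANBL6 and RPMI8226 at 0.831. The 3 epithelial markers summed to 0.0 to 0.00645 FPKM in ANBL6BR DMSO, against 10.2 to 11.8 in ANBL6 DMSO. The 4 myeloid markers summed to 0.169 to 0.266 FPKM in ANBL6BR DMSO, against 4.74 to 4.89 in ANBL6 DMSO, ITGAM alone reaching 4.47 FPKM. EPCAM reached 17.2 FPKM and was at 0 in 12 of 20 libraries. These markers moved with the comparison, and their part in it was not tested.

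Of 120 other WNT pathway genes in 8 lists, 74 were tested. With I3MO, 6 rose and 10 fell in ANBL6BR, beside 10.0% of all tested genes higher and 8.4% lower. In ANBL6 5 rose and 7 fell, beside 4.1% and 3.87%, and in ARP1 14 rose and 20 fell, beside 23.1% and 13.9%. In RPMI8226 8 rose and 15 fell, beside 6.19% and 8.62%, and in U266 6 rose and 16 fell, beside 10.5% and 15.8%. Among 12 tested nuclear partners of beta-catenin, 2 fell in ANBL6BR, 5 in ANBL6, 6 in ARP1, 5 in RPMI8226 and 5 in U266, and at most 1 rose in any model. Their median log2 fold change lay between -0.3 and -0.17 in the 5 models, beside -0.02 to 0.03 over all tested genes. TLE4, a Groucho-family co-repressor, fell in 5 of 5 models, with log2 fold changes from -0.48 in U266 (limma, adjusted p = 8.36e-05) to -0.19 in ARP1 (limma, adjusted p = 0.0234). TLE4 reached 1 FPKM only in the DMSO libraries of ANBL6BR and U266. It entered the test through these control groups, so its calls in ANBL6BR and U266 are a description only. Without 1 library of the model the TLE4 log2 fold changes ranged from -0.49 in U266 to -0.15 in ARP1. The TLE4 calls in ANBL6, ARP1 and RPMI8226 did not hold in every one of these fits. BCL9, which links beta-catenin to the PYGO co-activators, fell in 4 of 5, at -0.48 to -0.42. Of the 4 fits without 1 library, BCL9 was called in 1 in ANBL6 (-0.66 to -0.31), 2 in ARP1, 0 in RPMI8226 and 1 in U266. CBY1, an antagonist that binds beta-catenin, rose in 4 of 5, from 0.47 in ARP1 to 0.8 in ANBL6BR. Only the ANBL6BR call of CBY1 held in every fit without 1 library of the model.

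Regulators of GSK3 itself changed in both directions. FRAT1 and FRAT2 encode GSK3-binding proteins, and both passed as lower in ARP1, RPMI8226 and U266. Both were also lower with I3MO in every library of ANBL6BR and ANBL6, without passing. There FRAT2 averaged 3.56 FPKM with I3MO and 4.68 with DMSO in ANBL6BR, and 8.7 with I3MO and 10.2 with DMSO in ANBL6. FRAT2 averaged 17.3 FPKM with I3MO and 25.7 with DMSO in ARP1, 10.7 with I3MO and 23.0 with DMSO in RPMI8226, and 1.76 with I3MO and 5.48 with DMSO in U266. GSKIP, which encodes a GSK3-interacting protein, rose in 3 models, by 0.41 in ANBL6BR, 0.54 in ANBL6 and 0.88 in ARP1 (limma, adjusted p = 0.00504, 0.00246 and 1.37e-05). In the 21 tested genes of the destruction complex and cytoplasmic relay as a whole, rises and falls numbered 3 and 1 in ANBL6BR, 1 and 0 in ANBL6, 6 and 3 in ARP1, 2 and 2 in RPMI8226 and 3 and 2 in U266. Shares over all tested genes, higher and lower, were 10.0% and 8.4% in ANBL6BR and 4.1% and 3.87% in ANBL6. They were 23.1% and 13.9% in ARP1, 6.19% and 8.62% in RPMI8226, and 10.5% and 15.8% in U266. In ARP1 the counts lie near these shares, and in the other models they are small and a description only.

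At the cell surface, KREMEN2, a co-receptor of DKK proteins, fell in 5 of 5 models, with -0.59 in RPMI8226 (limma, adjusted p = 0.000127) and -0.29 in U266 (limma, adjusted p = 0.00701). With 0.1 added these 2 models change places, at -0.78 in RPMI8226 and -1.0 in U266, and the ANBL6 call is lost (-0.47; limma, adjusted p = 0.0611). FZD2, a Frizzled receptor, averaged 3.44 FPKM with I3MO and 10.7 with DMSO in ARP1 (-1.37; limma, adjusted p = 0.000356), and fell in RPMI8226 as well (-1.22). FZD1 fell in ANBL6BR and ARP1. RYK, a WNT co-receptor, rose in ANBL6BR, ARP1 and RPMI8226. Among ligands, WNT10B fell in ANBL6BR, RPMI8226 and U266 (-0.26, -0.32 and -0.73, against -1.35, -0.57 and -0.98 with 0.1 added to FPKM). WNT5B fell in ARP1 and U266, and WNT11 rose in ARP1 and RPMI8226. Several of these calls did not hold in every fit without 1 library of the model. They were KREMEN2 in ANBL6BR, ANBL6 and ARP1, FZD1 in ANBL6BR and ARP1, and RYK in ANBL6BR and RPMI8226. The same goes for WNT10B in ANBL6BR and RPMI8226 and WNT5B in ARP1.

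Among 13 tested reported beta-catenin targets outside the 10 genes, 1 rose and 2 fell in ANBL6BR, 2 and 0 in ANBL6, 2 and 2 in ARP1, 2 and 2 in RPMI8226, and 2 and 5 in U266. Over all tested genes the shares higher and lower were 10.0% and 8.4% in ANBL6BR, 4.1% and 3.87% in ANBL6, 23.1% and 13.9% in ARP1, 6.19% and 8.62% in RPMI8226, and 10.5% and 15.8% in U266. ID2, a helix-loop-helix inhibitor of differentiation, fell in 4 models. It averaged 2.09 FPKM with I3MO and 20.4 with DMSO in ARP1 (-2.8; limma, adjusted p = 2.99e-06). In ANBL6BR it averaged 0.67 with I3MO and 4.94 with DMSO (-1.77; limma, adjusted p = 0.000184). The ANBL6BR DMSO libraries were far apart, at 6.62 and 3.25 FPKM, and without 1 library of the model the difference was -2.2 to -1.35. VEGFA, the angiogenic growth factor, rose in ARP1, RPMI8226 and U266, and BAMBI, a pseudoreceptor of the TGF-beta family, rose in ANBL6BR and ANBL6. The calls of ID2 in U266, VEGFA in RPMI8226 and BAMBI in ANBL6 did not hold in every fit without 1 library of the model. The adhesion partner CTNNA1, alpha-catenin, fell in ARP1 and RPMI8226 and rose in U266 by 0.49 (limma, adjusted p = 0.0103). Of the 4 fits without 1 library, CTNNA1 was called in 1 in ARP1, 0 in RPMI8226 and 2 in U266, where it ranged from 0.27 to 0.72. Of the 53 named calls in these lists, 49 held with median-ratio scaling (all but RYK in ANBL6BR, BAMBI in ANBL6, and BCL9 and CTNNA1 in RPMI8226), 47 with 0.1 added to FPKM and 27 in every fit without 1 library of the model. Over the 5 models as units limma called 0 of the 74.

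**Figure D5:**
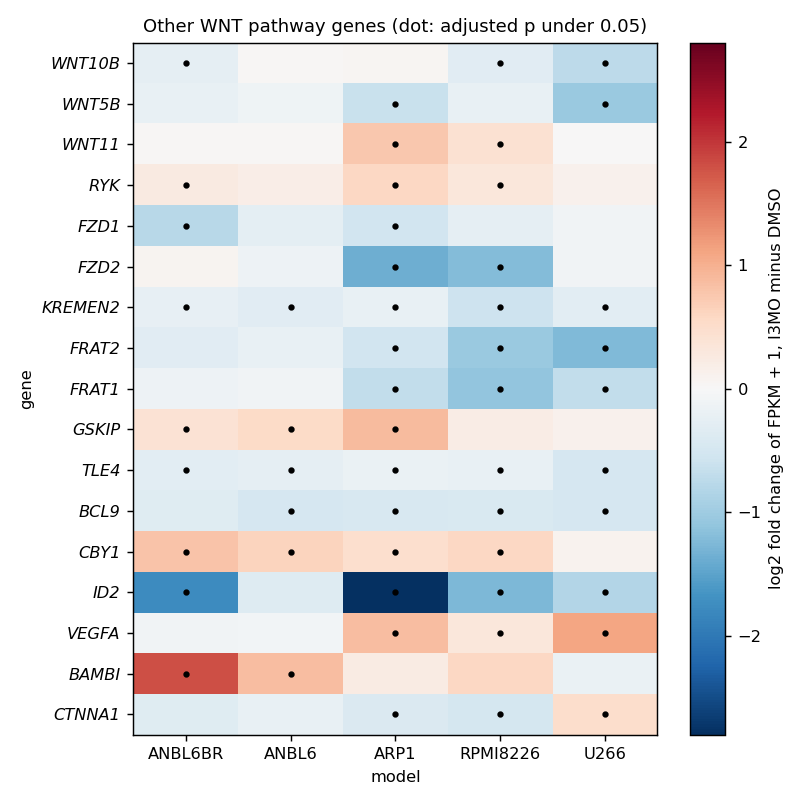
Log2 fold change of FPKM + 1, I3MO minus DMSO, of 17 other WNT pathway genes in the 5 models, by colour, with a dot at an adjusted p under 0.05. KREMEN2 and TLE4 are lower with a dot in all 5 models, and ID2 reaches -2.8 in ARP1.

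In the comparison of the DMSO groups of ANBL6BR and ANBL6, 22 of the 74 were higher and 27 lower, beside 27.0% and 24.8% of all tested genes. FRAT1 was higher in ANBL6BR by 0.6 (limma, adjusted p = 0.000148) and FRAT2 lower (-0.99; limma, adjusted p = 1.53e-05), so the 2 GSK3-binding proteins differed in opposite directions. BCL9 was higher (1.16) and KREMEN2 lower (-1.15) (limma, adjusted p = 6.61e-06 and 1.92e-08).

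The genes whose profile over the 10 group means was most like that of each tested gene were found by Pearson's r of log2(FPKM + 1) over all 15687 tested genes. They were ERCC1 (0.987) and STRN4 (0.976) for GSK3A, and SLC25A16 (0.984) and TP53BP1 (0.982) for GSK3B. For CTNNB1 they were INPPL1 (0.942) and F2RL3 (0.941), and for LEF1 CRKL (0.991) and MRPL15 (0.983). RNF43 was most like ENSG00000203279 (0.991) and IGHA2 (0.986), and DKK1 most like RNA5SP243 (0.99) and IGLV3-9 (0.974). The 10 points share 5 models, so these values mostly describe differences between lines, and 2 of 15687 genes were picked for each.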

How the data were processed

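RNA was sequenced from 5 myeloma cell models with I3MO or DMSO, 2 libraries per group, and groups, doses and replicate numbers came from the labels. The authors deposited FPKM for 60483 genes, in a joint table whose values equal those of the 20 single-library tables. Per the submitters' processing notes, reads were trimmed with Trimmomatic (0.32 and 0.36 are both named), aligned with STAR to hg38 and handled with SAMtools; no counting tool, annotation or strand setting was named in the sources used here.

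Positions and exons were taken from GENCODE 29. Symbols came from a separate list of gene names, where 56321 identifiers had a symbol. Fragments per gene and library totals were recovered from the steps of the FPKM values, with gene length as the sum of exons over transcripts; for GSK3B, CTNNB1 and NKD1 the smallest length giving whole fragments was used. Intervals of rate ratios are exact 95% intervals for counting error only. limma 3.58.1 in R 4.3.3 fitted log2(FPKM + 1) with an intensity trend and 1 mean per group over 20 libraries, for the 15687 genes that reached 1 FPKM in 2 or more libraries, with two-sided Benjamini-Hochberg adjusted p over all of them. The comparison over models used the 10 group means with the model as a block. The script was tested on simulated data.

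The 10 genes, the pathway and marker lists and the tests were chosen with earlier results of these data known. 1 marker list is not reported here. All 10 genes are named whatever their values. From each other list at most 3 genes are named, those called in the most models in 1 direction and in at least 2. Alternatives were 0.1 added to FPKM, no filter, median-ratio scaling, no intensity trend, a replicate block, only the 4 libraries of a model, and each library left out.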

Additional observations from a re-analysis of the deposited data

Results flagged for a closer look

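The GSK3B response to I3MO in ARP1, a log2 fold change of 0.65, stood apart from the responses of the other 4 models, -0.27 to -0.05: its gap to the nearest of them was 0.762 of the whole range, above Dixon's critical value of 0.71 for 5 values, which chance passes in about 1 of 20 groups. With median-ratio scaling the gap was 0.655 of the range, below that value. Equal responses to I3MO in the 5 models were rejected by limma's F-test for GSK3B (adjusted p = 0.0214), CTNNB1 (adjusted p = 0.0157), RNF43 (adjusted p = 0.0393) and DKK1 (adjusted p = 0.00016). DKK1 was at 0 in the DMSO libraries of 3 of the 5 models, where it could not fall, so its inequality follows from its levels. Both RNF43 and DKK1 passed the filter only through the U266 DMSO libraries, so their F-tests are a description only. In fragments the RNF43 ratio was further from 1 in RPMI8226 (0.423) than in U266 (0.65), the opposite order to the FPKM + 1 scale.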

How the results depend on the processing

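The number of the 6 tested genes called with I3MO moved as follows. With 0.1 added to FPKM it was 2 in RPMI8226 and 1 in U266. Without the filter it was 0 in ANBL6BR, and with median-ratio scaling 0 in RPMI8226. Fitted on only the 4 libraries of the model it was 0 in ANBL6BR, ARP1 and U266. With a replicate block it was 0 in ANBL6BR and 0 in RPMI8226, and 1 for unequal responses, with 456 genes called in ANBL6, 1541 in RPMI8226, 452 for the response difference of ANBL6BR and ANBL6, and 3942 for unequal responses. The ARP1 number moved too: LEF1 was lost with 0.1 added to FPKM (limma, adjusted p = 0.0574), and GSK3A was gained with median-ratio scaling (limma, adjusted p = 0.00675). Same-numbered samples deviated with correlations of -0.113 to 0.034 over the tested genes. Such values cannot show whether these samples shared a culture, which the labels do not state. In ARP1 a crossed pairing, chosen after seeing the data, called 3 of the 6 genes.

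Leaving out 1 library gave 0 to 1 in ANBL6BR and in ANBL6, 2 to 4 in ARP1, 0 to 1 in RPMI8226, 0 to 4 in U266, 4 to 5 for ANBL6BR against ANBL6, 1 to 5 for unequal responses, and -0.06 to 0.02 for the mean GSK3B minus GSK3A response, whose sign it turned. In U266, 0 arises because RNF43 and DKK1 fail the filter without a DMSO library. Signs of uncalled values also turned. These were GSK3B over the models (-0.03 with median-ratio scaling, -0.14 to 0.09 without 1 library or model), GSK3B in ANBL6BR (-0.13 to 0.03) and U266 (-0.39 to 0.14), CTNNB1 in ARP1 (-0.02 to 0.01), LEF1 in RPMI8226 (-0.03 to 0.05), and the response differences of CTNNB1 (-0.32 to 0.05) and RNF43 (-0.02 to 0.08). The causes were not tested.

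Genes called over the whole table, 2888 in ANBL6BR, 1250 in ANBL6, 5801 in ARP1, 2323 in RPMI8226 and 4117 in U266, numbered 64 in ANBL6BR, 18 in ANBL6, 227 in ARP1 and 974 in U266 with only the libraries of the model, and 4181 in ANBL6 without the filter. Leaving out 1 library gave 1365 to 3335 in ANBL6BR, 323 to 1827 in ANBL6, 3407 to 6351 in ARP1, 1118 to 2862 in RPMI8226 and 2666 to 4686 in U266. The response difference of ANBL6BR and ANBL6 had 1328 calls, 2888 without the filter and 523 to 2189 without 1 library. Low fragment numbers limit what can be said of AXIN2, TCF7, ZNRF3 and NKD1.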
